A study of Mus musculus with 4 samples.

Results

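The Rab genes encode small GTPases of membrane traffic, and they were followed here in mouse heart and in tibialis anterior (TA), a fast muscle of the lower hindlimb. A gene was taken as a Rab when its symbol was Rab, a number and at most 1 letter from a to d, so Rab-like genes and genes with other symbols were left out. Of 11237 gene symbols listed in either tissue, 40 met this rule. All 40 were listed in heart and 37 of them in TA, where Rab17, Rab20 and Rab32 were not listed. An unlisted gene is not a gene at 0, because the sources used here do not give the rule for listing. Rab8b, Rab25, Rab27b and Rab3b were listed in neither tissue.

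Both tissues came from untreated C57BL/6J males aged 10 weeks. Each tissue gave 1 library of ribosome footprints (RPF), the fragments that survive nuclease inside a ribosome, and 1 library of total RNA depleted of ribosomal RNA. The groups were therefore heart RPF, heart RNA, TA RPF and TA RNA, with 1 library in each, and the sources used here do not give how many animals went into a library. Without a second library in any group, the differences below carry no p-value and no check between replicates. A gene was called higher or lower by a fixed size of at least 2-fold, and the 95% intervals cover counting error only.

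A Rab protein switches between a GDP-bound form held in the cytosol and a GTP-bound form on a membrane. Exchange factors (GEFs) switch it on, GTPase-activating proteins (GAPs) switch it off, and the active form recruits effectors such as tethers and motor proteins. Each Rab marks its own set of membranes, from the endoplasmic reticulum to the lysosome. In muscle and fat a group of them acts in the insulin-driven movement of the glucose transporter GLUT4 (Slc2a4) to the cell surface.

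The values were RPM, reads on a gene scaled to the coding reads of its library. In heart 1 RPM stood for 28.2 footprints and 9.34 RNA reads, and in TA for 28.6 footprints and 16.1 RNA reads. Heart muscle markers (all 7 that were compared) were at least 2-fold higher in heart RNA, and fast skeletal muscle markers (all 5 compared) at least 2-fold lower. Both tissues were whole muscle, in which fewer cells of a type and less RNA per cell cannot be told apart. All 10 endothelial markers were at least 2-fold higher in heart RNA, with summed levels of 1533 RPM in heart and 388 RPM in TA. Likewise 9 of 9 macrophage and leukocyte markers were higher, with sums of 368 RPM in heart and 71.5 RPM in TA. Over all genes 35.0% were at least 2-fold higher in heart RNA. By the same rule 4 of 5 smooth muscle and pericyte, 2 of 2 red cell and 1 of 1 platelet markers were higher. Fewer were higher for fibroblasts (3 of 8), mast cells (1 of 3) and nerve (0 of 3). The part of these cells in the Rab differences was not tested.

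Close relatives in the family often differed in level or in tissue, so it matters that their reads can be told apart. The sequences below are the codons of the phosphate-binding loop, the first nucleotide-binding motif of the Rab fold. They were read from GENCODE transcripts of build GRCm38, 5′ to 3′, and run over 24 bases. Capitals mark bases that differ from the first gene named in each set.

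Rab1: ggcgattctggggttggaaagtcc
Rab1b: ggTgaCtcCggCgtGggCaagtcG
Rab2a: ggcgacacaggtgttggtaaatcg
Rab2b: ggAgacacaggtgtGggGaaGtcA
Rab4a: ggaaatgcgggaactggcaaatct
Rab4b: ggCaGtgcTggaactggcaaatcA
Rab5a: ggagagtctgctgttggcaaatca
Rab5b: ggagagtctgcAgtGggGaaGtcT
Rab5c: ggCgagtctgcCgtGggcaaGtcC
Rab6a: ggagagcagagcgttggaaagacg
Rab6b: ggGgagcagagcgtCggGaagacg
Rab11a: ggagattctggtgttggaaagagt
Rab11b: ggGgaCtcAggtgtAggTaagagC

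In this loop, relatives differed at 3 bases (Rab6b against Rab6a) to 7 bases (Rab1b against Rab1), though some shared longer identical runs elsewhere. Over the whole coding sequences (CDS), 6 of 780 pairs of Rab genes shared a run of 28 identical bases, close to the length of a footprint. The longest run was 38 bases, between Rab1 and Rab1b. This pair also shared the most 28-base windows, 11 of the 588 in Rab1 (1.87%). Only exact runs between the CDS of the listed Rabs were compared, not UTRs, other genes or inexact matches. How the authors placed reads that match several genes is unknown. Reads in the shared runs of Rab1, Rab1b, Rab10, Rab5a, Rab5b, Rab2b, Rab4b, Rab4a, Rab8a, Rab3a and Rab3d are therefore uncertain. Strand use is not stated either, and coding exons of 10 Rabs overlapped exons of a gene on the opposite strand. The longest such overlap was 484 nt, between Rab24 and Prelid1. On the same strand, 623 nt of the Rab4b CDS and 432 nt of the Rab43 CDS also lay in exons of Gm21983 and Gm45140. So did 107 nt of the Rab11a CDS, in exons of Gm47308.

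Together the 40 Rabs took 0.123% of heart coding footprints (1230 RPM, interval 0.122% to 0.125%) and 0.106% of heart RNA (1057 RPM, 0.104% to 0.108%). The 37 Rabs of TA took 0.119% of footprints (1185 RPM) and 0.0931% of RNA (928 RPM). Their CDS ran from 579 to 840 nt with a median of 642 nt, against 1422 nt for all heart genes. The family was dominated by a few members, since the 4 Rabs with the most reads made up 42.5% of its heart footprints and 43.0% of its TA footprints.

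Levels are compared between genes only per kb of CDS. Rab7, which directs traffic from late endosomes to lysosomes, had the most footprints per kb in both tissues, with 291 RPM per kb in heart and 346 RPM per kb in TA. It was followed in heart by Rab1b (209 RPM per kb), Rab1 (174) and Rab11b (171), and in TA by Rab10 (202), Rab1b (146) and Rab2a (137). RNA gave another order. Rab2a led heart RNA with 153 RPM per kb and Rab10 led TA RNA with 222 RPM per kb, while Rab7 had 119 RPM per kb of heart RNA and 122 RPM per kb of TA RNA. At the low end, Rab17 and Rab32 had 1.44 RPM of footprints per kb each in heart, and Rab2b had 1.19 RPM per kb in TA.

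**Figure D1:**
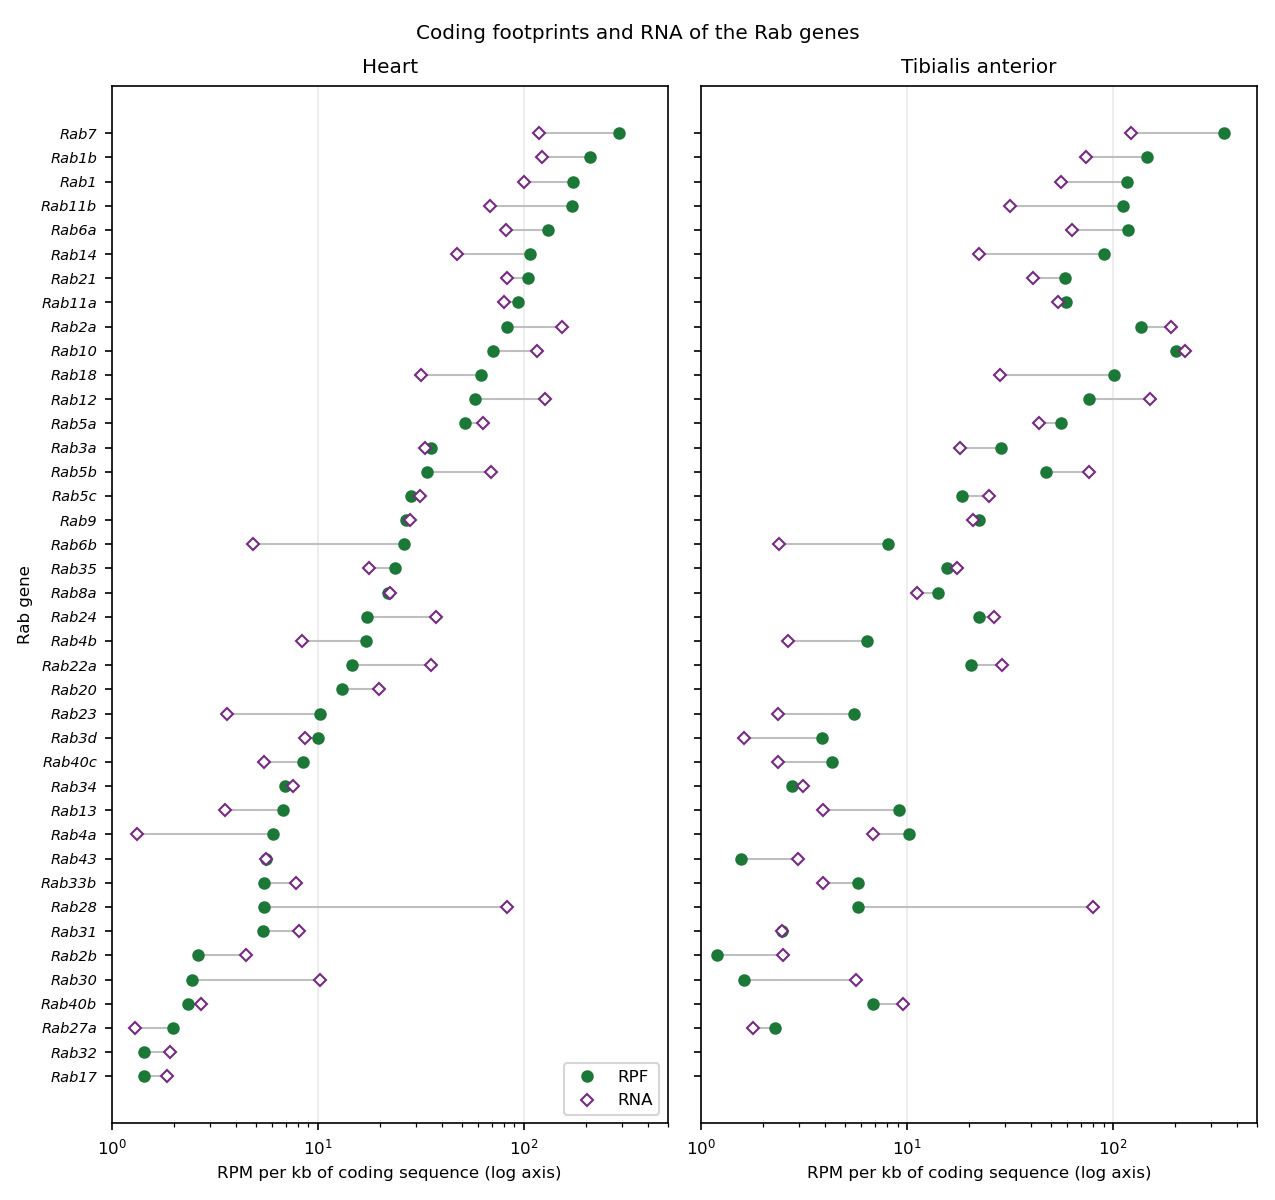
Coding footprints (filled circles) and RNA (open diamonds) of each Rab gene in RPM per kb of CDS, on log axes, in heart (left) and TA (right), 1 library each. Genes are ordered by heart footprints. Rab7 leads the footprints in both tissues at 291 and 346 RPM per kb, and Rab28 has the widest gap, with 5.47 RPM per kb of footprints against 83.3 RPM per kb of RNA in heart.

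How many footprints an mRNA carries for its RNA was taken as its efficiency, log2 of (RPF + 0.1 RPM) over (RNA + 0.1 RPM), minus the median over genes whose RNA reached 1 RPM. A Rab at 0 thus matches the median gene of its tissue. In heart 38 Rabs could be placed, with a median efficiency of 0.39, and in TA 37, with a median of 0.59.

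In heart 12 of 38 Rabs were at least 2-fold above the median gene, against 16.0% of all genes, and 2 of 38 (Rab30 and Rab28) were at least 2-fold below it, against 17.8%. In TA 13 of 37 Rabs were at least 2-fold above, against 15.4% of all genes, and the same Rab30 and Rab28 were below, against 18.7%. Short coding sequences had higher efficiencies in general. Among genes from 10% shorter than the shortest Rab to 10% longer than the longest, 27.2% in heart and 24.9% in TA were 2-fold above the median gene, and 8.62% and 9.83% were 2-fold below.

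Set against genes whose CDS length lay within 10% of its own, the median Rab was near the middle. The median Rab was at -0.10 against its like-length genes in heart, with 17 of 38 Rabs above them, and at 0.11 in TA, with 20 of 37 above. Past 2-fold on this scale were 5 Rabs above in heart (Rab6b, Rab23, Rab11b, Rab7 and Rab14, background 13.0%) and 6 below (Rab5b, Rab12, Rab24, Rab22a, Rab30 and Rab28, background 16.2%). In TA 5 were above (Rab14, Rab11b, Rab18, Rab6b and Rab7, background 13.2%) and 5 below (Rab12, Rab43, Rab2b, Rab30 and Rab28, background 17.6%). These shares of the family were close to the background in both directions. The members are described next by their place in the cell.

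**Figure D2:**
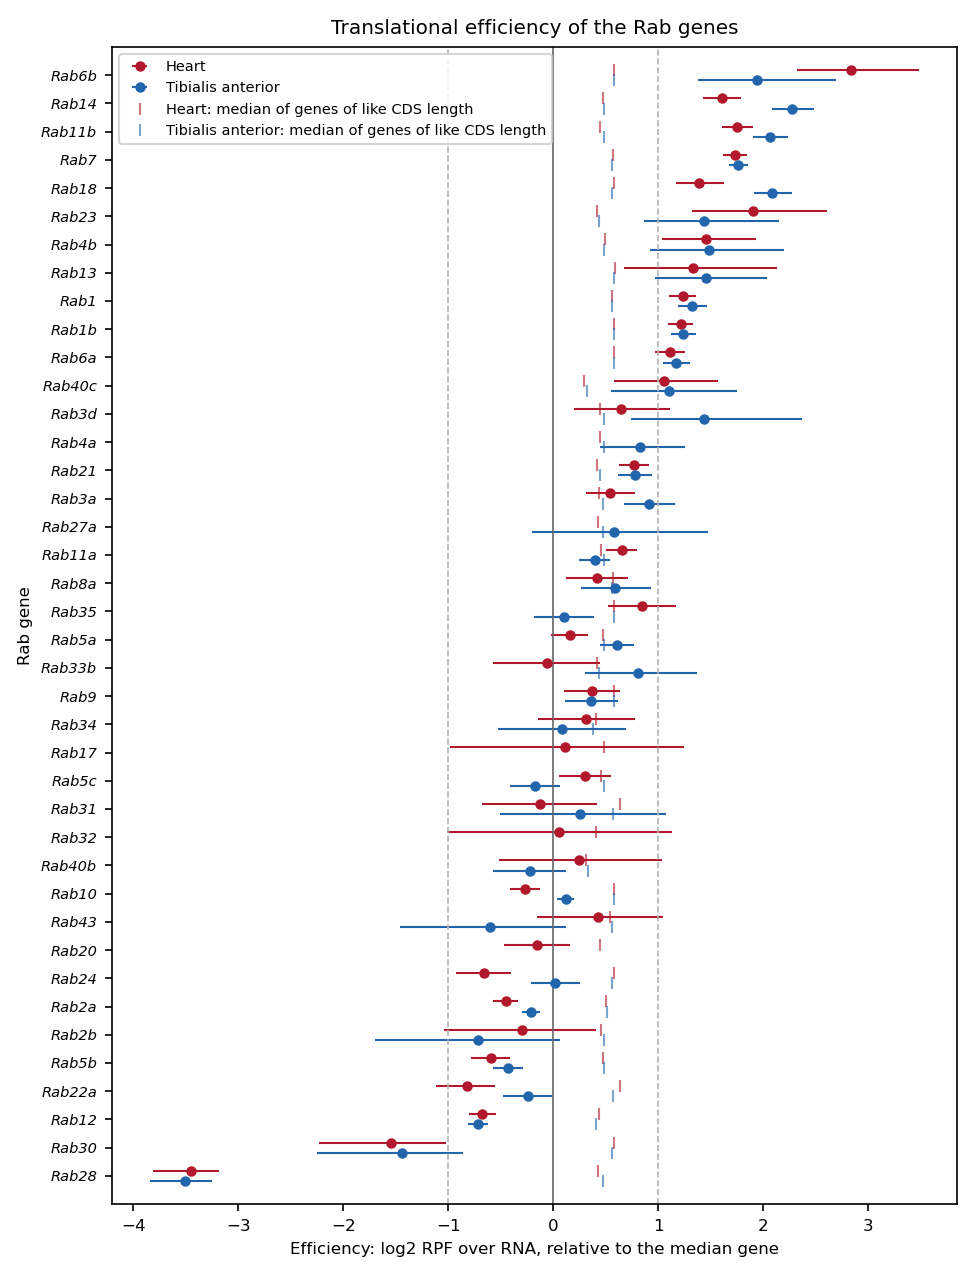
Efficiency of each Rab (log2 of RPF over RNA relative to the median gene, solid line at 0) in heart (upper point of each row) and TA (lower point), with 95% intervals for counting error. Short ticks give the median of genes of like CDS length and dashed lines the 2-fold limits. Rab6b, Rab14, Rab11b and Rab7 are among the Rabs beyond 2-fold above in both tissues, and are also 2-fold above their like-length genes in both. Rab30 and Rab28 lie beyond 2-fold below.

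Rabs of the endoplasmic reticulum and Golgi split into high and low members. Rab1 and Rab1b, which act on vesicles between endoplasmic reticulum and Golgi, behaved alike. Rab1 had 107 RPM of RPF and 61.4 RPM of RNA in heart, and 71.2 RPM of RPF and 34.0 RPM of RNA in TA. Rab1b had 125 RPM of RPF and 73.2 RPM of RNA in heart, and 87.7 RPM of RPF and 44.5 RPM of RNA in TA. Their efficiencies were 1.23 and 1.21 in heart and 1.32 and 1.24 in TA, all 4 more than 2-fold above the median gene. Rab18, a Rab of lipid droplets and the endoplasmic reticulum, had 38.0 RPM of RPF and 19.6 RPM of RNA in heart, and 61.9 RPM of RPF and 17.4 RPM of RNA in TA. It stood at 1.39 in heart (interval 1.17 to 1.63) and 2.09 in TA (1.91 to 2.28), and these intervals did not overlap.

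Rab6a and Rab6b, of retrograde transport to the Golgi, both lay above the median gene but from very different RNA levels. Rab6a had 81.2 RPM of RPF and 50.9 RPM of RNA in heart, and 73.6 RPM of RPF and 39.1 RPM of RNA in TA. Rab6b had 16.2 RPM of RPF and 3 RPM of RNA in heart, and 5.00 RPM of RPF and 1.49 RPM of RNA in TA. The efficiency of Rab6b was 2.84 in heart (interval 2.32 to 3.48), which is 7.14-fold above the median gene and exceeds 99.2% of its like-length genes, and 1.94 in TA (1.38 to 2.70). Rab6a had 1.11 in heart and 1.17 in TA. The Rab6b values rest on 28 RNA reads in heart and 24 in TA.

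Rab2a and Rab2b, which act at the early Golgi, went the other way. Rab2a had 52.2 RPM of RPF and 97.0 RPM of RNA in heart, and 86.9 RPM of RPF and 121 RPM of RNA in TA. Its efficiencies of -0.45 in heart and -0.21 in TA were below the median gene, with intervals that left out 0. Rab2b, with 1.70 RPM of RPF and 2.89 RPM of RNA in heart, and 0.77 RPM of RPF and 1.61 RPM of RNA in TA, was at -0.29 in heart and -0.71 in TA, and both of its intervals reached past 0. Rab30, a Golgi Rab, had 1.49 RPM of RPF and 6.21 RPM of RNA in heart, and 0.98 RPM of RPF and 3.42 RPM of RNA in TA. Rab30 lay at -1.55 in heart (-2.23 to -1.02) and -1.44 in TA (-2.25 to -0.86). Rab33b, which links the Golgi to autophagy, had 3.76 RPM of RPF and 5.35 RPM of RNA in heart, and 3.95 RPM of RPF and 2.67 RPM of RNA in TA, or -0.06 in heart and 0.81 in TA.

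Early endosome Rabs mostly lay near the median gene. Rab5a, Rab5b and Rab5c, which drive the fusion of early endosomes, differed among themselves. Rab5a had 33.4 RPM of RPF and 40.7 RPM of RNA in heart, and 35.7 RPM of RPF and 28.01 RPM of RNA in TA. Rab5b had 21.7 RPM of RPF and 44.4 RPM of RNA in heart, and 30.3 RPM of RPF and 48.9 RPM of RNA in TA. The efficiency of Rab5b (-0.59 in heart, -0.43 in TA) was below that of Rab5a (0.16 in heart, 0.61 in TA) in each tissue, with intervals that did not overlap. Rab5c, with 18.3 RPM of RPF and 20.1 RPM of RNA in heart, and 12.0 RPM of RPF and 16.2 RPM of RNA in TA, had 0.30 in heart and -0.17 in TA. Rab21, linked to integrin uptake, had 69.2 RPM of RPF and 55.0 RPM of RNA in heart, and 38.9 RPM of RPF and 27.1 RPM of RNA in TA, and nearly the same efficiency in both (0.77 in heart and 0.78 in TA).

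Rab22a, an endosomal Rab, had 8.5 RPM of RPF and 20.6 RPM of RNA in heart, and 11.8 RPM of RPF and 16.8 RPM of RNA in TA. It lay at -0.82 in heart (-1.11 to -0.55), 1.46 below its like-length genes on the log2 scale, and at -0.24 in TA (-0.48 to -0.01). Rab4b, of fast recycling, was the early endosome Rab past 2-fold, at 1.46 in heart and 1.48 in TA. Footprints on its 3′ untranslated region were at 0.74 of its CDS density in heart and 2.53 in TA. Among the heart-only members Rab20, a Rab of phagosomes, had 9.14 RPM of RPF and 13.8 RPM of RNA, and Rab17, known from epithelial cells, had 0.92 RPM of RPF and 1.18 RPM of RNA. Their efficiencies were -0.15 and 0.11, and both intervals held 0.

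Recycling Rabs and those linked to GLUT4 included some of the highest members. Rab11a and Rab11b, of the recycling endosome, had 80.5 and 68.7 RPM of RNA per kb in heart, but 93.4 and 171 RPM of footprints per kb. Rab11a had 60.3 RPM of RPF and 51.9 RPM of RNA in heart, and 38.2 RPM of RPF and 34.7 RPM of RNA in TA. Rab11b had 112 RPM of RPF and 44.7 RPM of RNA in heart, and 72.4 RPM of RPF and 20.7 RPM of RNA in TA. The efficiency of Rab11b was 1.76 in heart (1.61 to 1.91) and 2.06 in TA (1.90 to 2.24), against 0.65 in heart and 0.40 in TA for Rab11a. Rab14, of the Golgi, endosomes and GLUT4 vesicles, had 68.6 RPM of RPF and 30.5 RPM of RNA in heart, and 58.2 RPM of RPF and 14.3 RPM of RNA in TA, which placed it at 1.61 in heart and at 2.27 in TA, the highest efficiency of the family there.

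Rab8a, Rab10 and Rab13 are substrates of the insulin-regulated GAPs in muscle and fat cells, and lay apart from each other. Rab10 had 42.2 RPM of RPF and 68.9 RPM of RNA in heart, and 120 RPM of RPF and 133 RPM of RNA in TA, with efficiencies of -0.27 in heart and 0.12 in TA. Rab8a had 13.6 RPM of RPF and 13.8 RPM of RNA in heart, and 8.71 RPM of RPF and 6.89 RPM of RNA in TA, with efficiencies of 0.42 in heart and 0.59 in TA. Rab13 had 4.07 RPM of RPF and 2.14 RPM of RNA in heart, and 5.53 RPM of RPF and 2.36 RPM of RNA in TA, with efficiencies of 1.34 in heart and 1.45 in TA. In heart, then, Rab10 was 0.85 below its like-length genes on the log2 scale and Rab13 0.75 above.

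Rab12, of recycling endosomes and autophagy, carried much RNA and few footprints relative to that RNA. It had 42.3 RPM of RPF and 91.7 RPM of RNA in heart, and 55.5 RPM of RPF and 109 RPM of RNA in TA. Its efficiencies of -0.67 in heart and -0.72 in TA were more than 2-fold below those of like-length genes in each tissue. Rab35, of fast endosomal recycling, had 14.2 RPM of RPF and 10.7 RPM of RNA in heart, and 9.41 RPM of RPF and 10.5 RPM of RNA in TA, and stood at 0.84 in heart (0.52 to 1.17) and 0.10 in TA (-0.18 to 0.39).

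Of the late endosome and lysosome Rabs, Rab7 had 180 RPM of RPF and 73.3 RPM of RNA in heart, and 214 RPM of RPF and 75.5 RPM of RNA in TA. Its efficiency was 1.73 in heart and 1.76 in TA, with narrow intervals (1.62 to 1.85 and 1.67 to 1.85), and it exceeded 90.1% and 92.8% of its like-length genes. Rab9, which returns mannose 6-phosphate receptors to the Golgi, had 16.0 RPM of RPF and 16.8 RPM of RNA in heart, and 13.4 RPM of RPF and 12.5 RPM of RNA in TA, with efficiencies of 0.37 in heart and 0.36 in TA. Rab24, linked to autophagy, had 10.6 RPM of RPF and 22.7 RPM of RNA in heart, and 13.6 RPM of RPF and 16.1 RPM of RNA in TA, and lay at -0.66 in heart and 0.02 in TA. Whether the RNA of Rab24 includes reads of Prelid1 on the other strand was not tested. Rab32, of lysosome-related organelles, was listed in heart alone with 0.96 RPM of RPF and 1.28 RPM of RNA, and Rab34 had efficiencies of 0.31 in heart and 0.08 in TA.

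Rabs of regulated secretion were few. Rab3a, known from synaptic vesicles, had 23.4 RPM of RPF and 21.7 RPM of RNA in heart, and 18.7 RPM of RPF and 11.9 RPM of RNA in TA. Rab3d had 6.55 RPM of RPF and 5.67 RPM of RNA in heart, and 2.52 RPM of RPF and 1.06 RPM of RNA in TA. Their efficiencies in heart were 0.54 and 0.64, and in TA 0.91 and 1.44. Rab27a, of secretory lysosomes and melanosomes, had 1.31 RPM of RPF and 0.86 RPM of RNA in heart, and 1.50 RPM of RPF and 1.18 RPM of RNA in TA, and with 8 RNA reads in heart it was placed in TA alone, at 0.58.

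Rab28 stood furthest from the rest of the family. This distant Rab, known from cilia and cone photoreceptors, had 3.61 RPM of RPF and 55.0 RPM of RNA in heart, and 3.81 RPM of RPF and 53.0 RPM of RNA in TA. Its efficiency of -3.45 in heart (-3.81 to -3.18) and -3.50 in TA (-3.84 to -3.25) left it at 0.0913 and 0.0881 of the ratio of the median gene. No gene of like CDS length, of 623 in heart and 576 in TA, was lower. RNA on its 794-nt 3′ untranslated region (UTR), 40.1 RPM in heart and 42.9 RPM in TA, ran at 0.607 and 0.672 of its CDS level per nt, so the RNA reads were not confined to the coding part. Rab23, which restrains Hedgehog signalling, was high, at 1.90 in heart (1.32 to 2.61) and 1.44 in TA (0.87 to 2.15). It had 7.26 RPM of RPF and 2.57 RPM of RNA in heart, and 3.92 RPM of RPF and 1.68 RPM of RNA in TA. The Rab23 values rest on 24 RNA reads in heart and 27 in TA. Footprints on its 3′ UTR were at 0.87 of its CDS density in heart and 0.69 in TA. Whether its CDS footprints reflect translation was not tested. Rab40c, of the ubiquitin-ligase Rabs with a SOCS box, had 7.09 RPM of RPF and 4.60 RPM of RNA in heart, and 3.64 RPM of RPF and 1.99 RPM of RNA in TA. It stood at 1.05 in heart and 1.1 in TA, and its relative Rab40b at 0.24 and -0.22.

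The efficiencies of the 2 tissues followed each other across the 35 Rabs placed in both (Pearson's r = 0.92, Spearman's rank correlation 0.89, across genes that are not independent replicates). Over all 9635 genes r was 0.88, so the family was no exception in this. Of the 35 Rabs, 34 differed by less than 2-fold between heart and TA. Rab43, a Golgi Rab, was higher in heart by 1.03 (background 4.07% of genes at least 2-fold higher), and no Rab was 2-fold lower (background 2.34%). Rab43 had 3.51 RPM of RPF and 3.53 RPM of RNA in heart, and 0.98 RPM of RPF and 1.86 RPM of RNA in TA. It rests on 33 and 30 RNA reads and 28 TA footprints, and the intervals of its 2 efficiencies (-0.15 to 1.04 in heart, -1.46 to 0.13 in TA) overlapped. Rab4a, left out because its heart RNA was 0.86 RPM, would differ by 1.68 without that minimum, at 2.51 in heart (1.61 to 3.89, from 8 RNA reads) and 0.83 in TA (0.44 to 1.25).

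Set against TA, 8 of 37 Rabs had at least 2-fold more RNA in heart, against 35.0% of all genes, and 2 of 37 had at least 2-fold less, against 3.88%. The log2 difference of the median Rab was 0.58, and that of the median gene was itself 0.70. Relative to the median gene, 1 Rab was 2-fold higher in heart (background 13.5%) and 5 were lower (background 10.4%). In footprints 7 of 37 were at least 2-fold higher in heart (background 30.1%) and 2 lower (background 5.06%), with a median Rab at 0.32 and a median gene at 0.60. Relative to the median gene 2 were higher (background 11.9%) and 8 lower (background 12.0%).

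Rab3d, Rab31, Rab4b, Rab34, Rab40c, Rab11b, Rab14 and Rab21 were the 8 with more RNA in heart. Rab3d differed the most, by 2.31 (interval 1.61 to 3.31) in RNA and 1.34 (0.98 to 1.79) in footprints, and it alone remained 2-fold higher in RNA relative to the median gene. Rab31, of the trans-Golgi network and endosomes, had 3.15 RPM of RPF and 4.71 RPM of RNA in heart, and 1.43 RPM of RPF and 1.43 RPM of RNA in TA, a difference of 1.65 in RNA and 1.09 in footprints. Rab34, a Rab of lysosome positioning and cilia, had 5.38 RPM of RPF and 5.89 RPM of RNA in heart, and 2.13 RPM of RPF and 2.42 RPM of RNA in TA, or 1.25 and 1.30. Rab11b (1.11), Rab14 (1.08) and Rab21 (1.02) were above 2-fold in RNA but at 0.62, 0.24 and 0.83 in footprints. In footprints Rab43 (1.74, interval 1.22 to 2.50) and Rab6b (1.68, 1.42 to 1.98) were furthest up, and both stayed 2-fold higher relative to the median gene.

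The Rab4 relatives ran in opposite directions. Rab4a had 3.93 RPM of RPF and 0.86 RPM of RNA in heart, and 6.68 RPM of RPF and 4.47 RPM of RNA in TA. Rab4b had 10.9 RPM of RPF and 5.35 RPM of RNA in heart, and 4.06 RPM of RPF and 1.68 RPM of RNA in TA. In RNA, Rab4a differed by -2.25 (-3.65 to -1.33) and Rab4b by 1.61 (0.97 to 2.41), and in footprints by -0.75 (-1.12 to -0.42) and 1.41 (1.12 to 1.75). The RNA of Rab4b cannot be told apart from that of the overlapping Gm21983 here.

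Rab10 and Rab40b were the Rabs 2-fold lower in heart footprints. Rab10 differed by -1.51 (-1.61 to -1.42) in footprints and by -0.94 (-1.07 to -0.82) in RNA, on 1190 heart and 3439 TA footprints, the best counted of the footprint differences past 2-fold. Rab40b had 1.95 RPM of RPF and 2.25 RPM of RNA in heart, and 5.67 RPM of RPF and 7.95 RPM of RNA in TA, a difference of -1.49 (-2.01 to -1.09) in footprints and -1.78 (-2.56 to -1.15) in RNA. Relative to the median gene, Rab10, Rab40b, Rab4a, Rab2a and Rab27a were the 5 with 2-fold less RNA in heart. Rab7 was nearly level, at -0.04 in RNA and -0.25 in footprints.

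**Figure D3:**
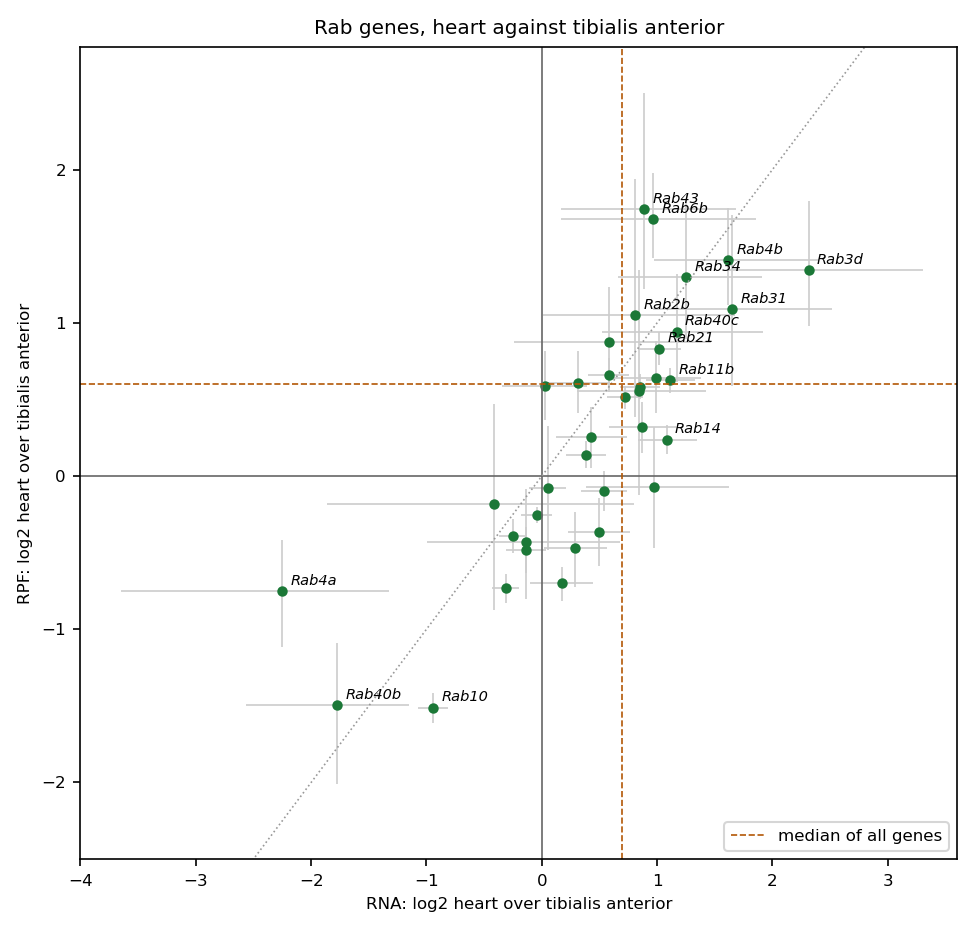
Heart over TA log2 ratios of the 37 Rabs listed in both tissues, with RNA on the horizontal and footprints on the vertical axis, and 95% intervals for counting error. Dashed lines give the medians of all genes (0.70 and 0.60), the dotted line equal ratios, and Rabs at least 2-fold apart on either axis are named. Rab4a, Rab40b and Rab10 lie at the lower left and Rab3d furthest right.

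Footprints on the 5′ UTR were set against the CDS per nt, for UTRs of at least 20 nt and genes with at least 1 RPM of CDS footprints and RNA. Of the members, 34 passed in heart and 33 in TA, and Rab7 and Rab20 have no 5′ UTR in the models used. In heart 3 of 34 Rabs were denser on the 5′ UTR than on the CDS (Rab43, Rab2a and Rab18), against 15.4% of all genes and 12.0% of genes in the Rabs' length range. In TA none of 33 was, against 10.9% of all genes and 6.51% of those in the length range. In RNA none was denser in either tissue (background 4.41% and 3.99%). The median Rab carried 0.227 of its CDS density on the 5′ UTR in heart and 0.124 in TA, and like-length genes 0.113 and 0.0630. Above its like-length genes lay 22 of 34 Rabs in heart and 22 of 33 in TA.

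Rab2a was the best counted of these. Its 219-nt 5′ UTR held 41.3 RPM of footprints in heart (1166 reads) and 29.2 RPM in TA (833 reads), against 2.46 RPM and 4.60 RPM of RNA. The density ratio was 2.29 in heart (2.11 to 2.47) and 0.97 in TA (0.90 to 1.05), while in RNA it was 0.0733 and 0.110. No ATG lies in the matching 219-nt 5′ UTR of the GENCODE model. Rab43 held 5.53 RPM of footprints on 235 nt in heart (156 reads) and 0.10 RPM in TA (3 reads), a heart ratio of 4.20 (3.25 to 5.46), and too few CDS footprints to pass in TA. Rab18 held 4.29 RPM on 60 nt in heart and 1.75 RPM in TA, ratios of 1.16 (0.95 to 1.39) and 0.29 (0.21 to 0.38). Unlike Rab2a, the 5′ UTR of Rab43 held 0 RNA reads in heart, and that of Rab18 held 0 in both tissues.

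Of the Rabs below 1 in heart, Rab5a and Rab10 held the most 5′ UTR footprints there. Rab5a had 19.3 RPM on its 467-nt 5′ UTR in heart and 8.85 RPM in TA (ratios 0.80 and 0.34). Rab10 had 21.8 RPM on 551 nt in heart and 33.6 RPM in TA (0.56 and 0.30). On fewer footprints, the heart ratio was also above that of Rab10 for Rab2b (0.96), Rab31 (0.94), Rab28 (0.77) and Rab24 (0.74). The same held for Rab5b (0.68), Rab34 (0.62) and Rab22a (0.58). In the GENCODE models, opposite-strand exons overlap the 5′ UTR of Rab24 (Prelid1, 291 nt) and Rab2b (Tox4, 158 nt). They also overlap that of Rab6a (Mrpl48, 638 nt), Rab33b (Gm38160, 366 nt) and Rab11b (Gm17251, 268 nt). The part of reads from those exons in the 5′ UTR ratios was not tested. At the other end Rab1b (0.0149 and 0.0083), Rab1 (0.0082 and 0) and Rab11b (0.0276 and 0.0124) had almost no 5′ UTR footprints despite many on the CDS. The 5′ UTR of Rab1 is only 28 nt long here and held 0 RNA reads in both tissues, whereas the 58 nt of Rab1b held 16 RNA reads in each. The heart ratio exceeded the TA ratio for 24 of 31 Rabs with both, against 56.9% of all genes, a count made after the values were seen. The ratio was also set beside the presence of an upstream start codon (ATG). The 5′ UTR length was within 3 nt of the GENCODE model for 19 Rabs that passed in heart, and the 10 without an upstream ATG had a median ratio of 0.165 and the 9 with one 0.350, beside 0.0751 and 0.342 among all genes so matched. The share of genes denser on the 5′ UTR than on the CDS ran the other way, with 2 of the 10 Rabs without an upstream ATG and 0 of the 9 with one, beside 7.75% and 21.7% among all genes. These counts of Rabs are small and were not tested. The median GC content of these Rab 5′ UTRs was 76.5% and 71.7%, beside 67.3% and 61.8%.

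**Figure D4:**
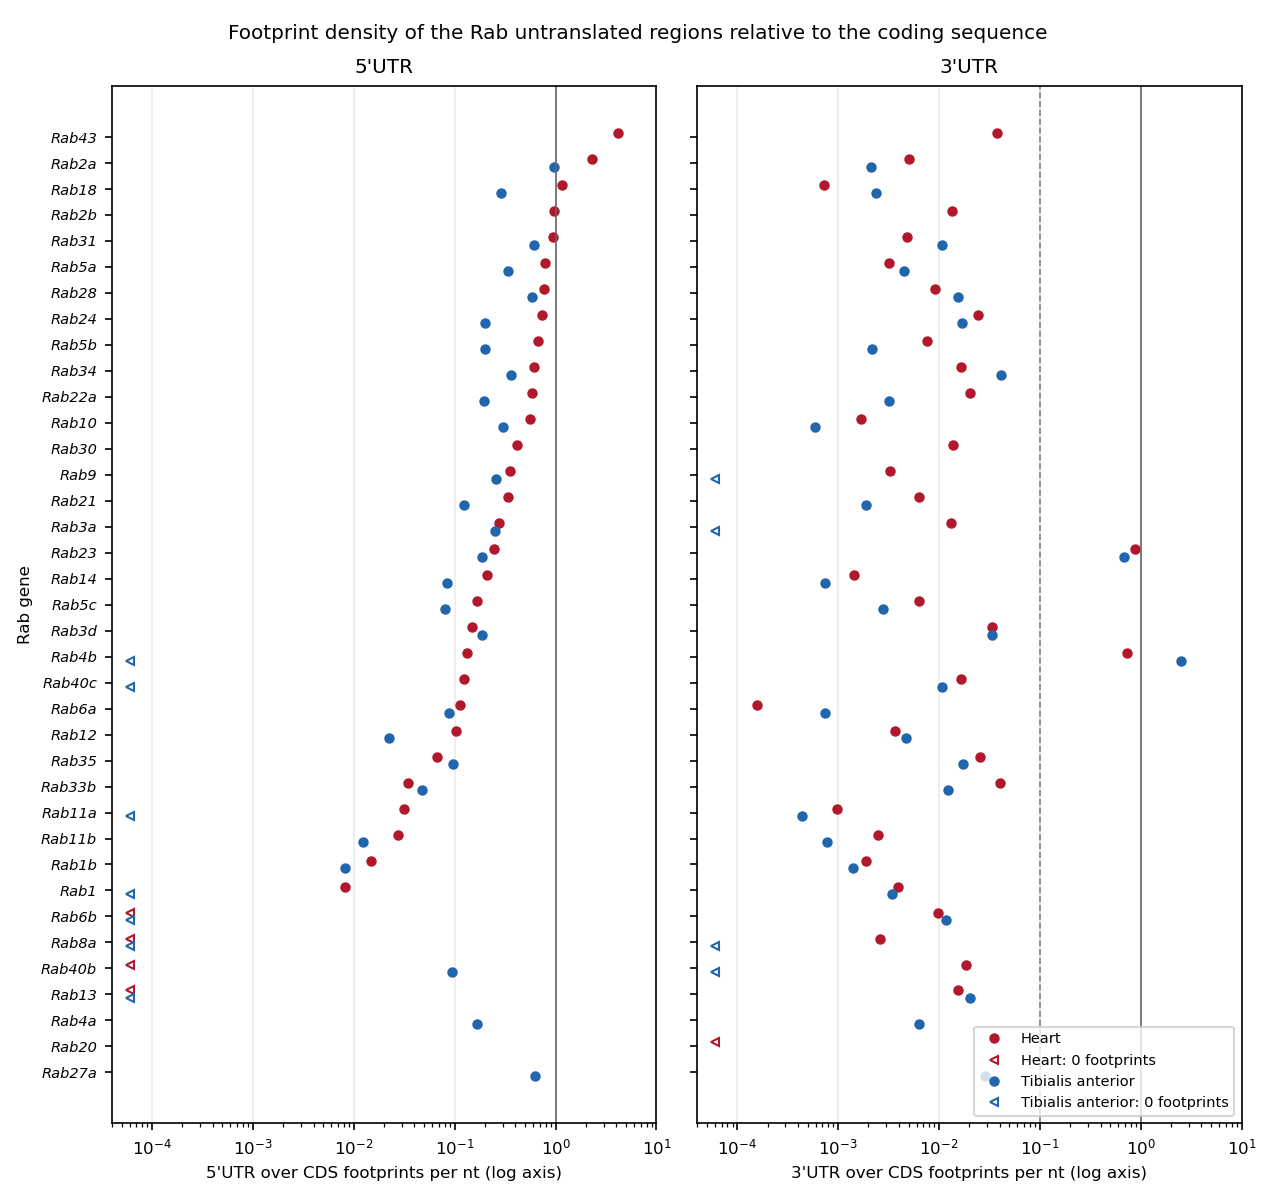
Footprints per nt on the 5′ UTR (left) and 3′ UTR (right) of each Rab relative to its CDS, on log axes, in heart (upper point of each row) and TA (lower point). Open triangles at the left edge stand for 0 footprints, solid lines mark equal density and the dashed line 0.1 of the CDS. Rab43, Rab2a and Rab18 lie right of 1 in heart on the 5′ UTR, and Rab23 and Rab4b stand alone on the 3′ UTR.

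On the 3′ UTR, where ribosomes have mostly left the mRNA, footprints were sparse and RNA was not. The median Rab carried 0.0076 of its CDS footprint density there in heart and 0.0034 in TA, and 0.756 and 0.885 of its CDS RNA density. Only Rab23 and Rab4b reached 0.1 of the CDS, 2 of 35 Rabs in heart (background 9.77%) and 2 of 33 in TA (background 5.45%). Rab23 held 28.4 RPM of footprints and 8.24 RPM of RNA on its 3172-nt 3′ UTR in heart, and 12.1 RPM and 4.84 RPM in TA, with footprint ratios of 0.87 (0.75 to 1.02) and 0.69 (0.55 to 0.86). Rab4b held 4.92 RPM of footprints and 2.57 RPM of RNA on 387 nt in heart, and 6.26 RPM and 0.68 RPM in TA, with ratios of 0.74 (0.60 to 0.91) and 2.53 (2.00 to 3.23). In the GENCODE model 393 nt of the Rab4b 3′ UTR are also exonic in Gm21983. In both genes the 3′ UTR footprints exceeded the 3′ UTR RNA in RPM, in each tissue.

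GEFs, GAPs and effectors had lower median efficiencies than the Rabs. Of 39 GEFs in heart 4 were 2-fold above the median gene and 11 below, with a median of -0.55, and of 35 in TA 3 were above and 14 below, with a median of -0.71. Over all genes 16.0% were above and 17.8% below in heart, and 15.4% and 18.7% in TA. Relative to the median gene, the highest GEFs were small subunits of the TRAPP complex, an exchange factor for Rab1. These were Trappc1 (1.66) and Trappc3 (1.62) in heart and Trappc5 (1.71) in TA, and the lowest was Dennd5a (-2.73 in heart and -2.47 in TA). Against genes of like CDS length, the highest in heart were instead Madd (1.23) and Rin1 (1.00, on 1.61 RPM of RNA). In TA they were Trappc5 (1.14) and Trappc3 (0.87). Another small TRAPP subunit, Trappc6b, had 24.3 RPM of RPF and 25.5 RPM of RNA in heart but 4.30 RPM of RPF and 20.1 RPM of RNA in TA, where its difference from genes of like CDS length was the lowest of the GEFs (-2.45). Of 37 GAPs in heart none was above and 7 were below (median -0.42), and of 53 effectors 2 were above and 10 below (median -0.35), so the shares below were near that of all genes. Rab escort and prenylation factors were nearer to the Rabs, with 2 of 7 above and none below and a median of 0.31. Compared with genes of like CDS length, the medians were -0.38 in heart and -0.35 in TA for GEFs, -0.20 and -0.22 for GAPs, and 0.01 and -0.20 for effectors, beside -0.10 and 0.11 for the Rabs. On that scale the effectors therefore lay above the Rabs in heart and below them in TA.

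Other small GTPases of like size also had median efficiencies above that of all genes. In heart these were 0.70 for 23 Arf, Arl and Sar genes and 0.43 for 24 Ras genes, beside 0.39 for the Rabs.

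Between the tissues the 2 insulin-regulated GAPs of the GLUT4 Rabs were opposed. Tbc1d4 had 143 RPM of RPF and 226 RPM of RNA in heart, and 26.2 RPM of RPF and 30.2 RPM of RNA in TA, a difference of 2.90 in RNA. Tbc1d1 had 13.3 RPM of RPF and 26.8 RPM of RNA in heart, and 92.4 RPM of RPF and 132 RPM of RNA in TA, a difference of -2.29 in RNA. Of 20 genes of GLUT4 traffic, 9 had at least 2-fold more RNA in heart and 1 (Tbc1d1) less. The same counts were 13 and 1 of 35 for GEFs, 15 and 2 of 36 for GAPs and 16 and 1 of 49 for effectors, beside the background of 35.0% and 3.88%.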

How the data were processed

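Mouse heart and TA each gave 1 RPF and 1 RNA library. Per the labels' protocols, tissue lysed in cycloheximide was partly kept for RNA and otherwise digested with RNase I and pelleted, and short fragments were cut from a gel. The submitters' processing notes name Bowtie and mm9. The deposited values are RPM, per the file headers, for the CDS, 5′ UTR and 3′ UTR of 1 RefSeq model per gene, not divided by length. The sources used here do not give the Bowtie version, the trimming or how reads with several matches were treated.

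Low values were whole multiples of the worth of 1 read (100% within 0.005 RPM), which gave 28120000 coding footprints and 9280000 coding RNA reads in heart, and 28520000 and 16050000 in TA. For footprints the rounding is 14.1% (heart) and 14.3% (TA) of 1 read, so their numbers are approximate. Exact conditional Clopper-Pearson intervals at 95% used these reads. No count test could be fitted, since no group has a second library and no residual degrees of freedom remain. RPM was used with a pseudocount of 0.1 RPM, a minimum of 1 RPM of RNA (mean of both tissues for tissue ratios) and a 2-fold size rule, and folds understate the differences of low genes. Tissue ratios were not centred. Symbols on several rows (5 in heart, 4 in TA) kept the row with the highest CDS sum.

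All listed genes entered the centring, the length neighbours and the backgrounds. Coding lengths matched GENCODE M21 (GRCm38) models for 40 of 40 Rabs. No coordinates are given, as mm9 is another build. All Rabs could be named. For pathway lists the 2 highest, the 2 lowest and the most abundant genes could be named. The members and lists were chosen with earlier results of these data known. Scripts were checked on simulated libraries in Python 3.11.15 (numpy 2.4.6, pandas 2.3.3, scipy 1.17.1, matplotlib 3.10.9). Alternatives changed the pseudocount, the minimum, the centring, the length match, the choice of rows and the scale, by leaving out the 50 most abundant genes.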

Additional observations from a re-analysis of the deposited data

Results flagged for a closer look

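For 7 Rabs the efficiency lay above the median gene in 1 tissue and below it in the other. With 1 library per group these differences between heart and TA were not tested. Higher in heart were Rab43 by 1.03 (0.43 in heart, -0.60 in TA), Rab5c by 0.47 (0.30 in heart, -0.17 in TA) and Rab40b by 0.46 (0.24 in heart, -0.22 in TA). Lower in heart were Rab33b with a difference of -0.87 (-0.06 in heart, 0.81 in TA), Rab24 with -0.68 (-0.66 in heart, 0.02 in TA), Rab10 with -0.39 (-0.27 in heart, 0.12 in TA) and Rab31 with -0.39 (-0.13 in heart, 0.26 in TA). The counting intervals of the 2 tissues did not overlap for Rab24 and Rab10, and overlapped for Rab43, Rab40b, Rab33b, Rab31 and, narrowly, Rab5c. Exons on the opposite strand overlap the CDS of Rab33b (Gm38160, 249 nt), Rab24 (Prelid1, 484 nt) and Rab10 (Rab10os, 81 nt), and exons of Gm45140 on the same strand overlap 432 nt of the Rab43 CDS, and the part of those reads was not tested.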

How the results depend on the processing

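No paired analysis was possible because each group holds 1 library. Without centring, 6 Rabs were 2-fold above and 6 below in heart (12 and 2 with it), the median was -0.046 in heart and 0.33 in TA, and 0 Rabs were 2-fold higher and 1 lower in the efficiency difference. The heart median therefore turned its sign. At a minimum of 5 RPM, 3 Rabs stood 2-fold above like-length genes in heart, 7 were 2-fold above the median gene and 1 below in TA, 2 were below like-length genes in TA, 1 in heart and 0 in TA kept 3′ UTR footprints at 0.1 of the CDS, 3 were higher and 1 lower in heart RNA, 0 were higher in heart footprints and 0 in the efficiency difference, since fewer genes pass. With no minimum that last count was 2. Centred on the median gene, 1 Rab was higher and 5 were lower in heart RNA and 2 and 8 in footprints, and the medians turned to -0.12 and -0.28. On the scale without the 50 most abundant genes, 3 were higher in heart RNA, 2 were higher and 6 lower in footprints, 2 were higher in efficiency, and the medians turned to -0.0074 and -0.20. For TA against like length, 8 were above at a pseudocount of 0.01, 9 with the linear length trend removed, and 3 below at a pseudocount of 1, which also left 1 Rab 2-fold below the median gene. Divided by the RNA ratio, 16 Rabs in heart and 15 in TA had a 5′ UTR ratio above 1. Rabs with 0 RNA reads on the 5′ UTR (10 of 34 in heart, 10 of 33 in TA) drop out of this count. The share of all genes above 1 on this scale was not taken, so the count is not a result about the Rabs. Where construction does not show it, the cause was not tested. Of 130 other family values 1 changed its sign, the TA median against like length, which was -0.0048 at a minimum of 5 RPM and 0.11 as reported. The rest kept their direction or, for counts, stayed within 1.5 times. For single Rabs 277 values kept their side, and 41 values of single Rabs kept their direction but passed under 2-fold. RNA depth in heart, at 9.34 reads per RPM, limits Rab4a, Rab27a, Rab17, Rab32, Rab13, Rab40b, Rab23, Rab2b and Rab6b.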
